A study of Danio rerio with 4 samples.

Results

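The transcripts described here are the 129 that were at least 4 times as abundant among the footprints of stacked ribosomes as among those of single ribosomes in zebrafish embryos at 4 hours post fertilization (hpf), in both replicate numbers. They are called enriched transcripts below. The deposited tables list 59876 transcripts, of which 46061 have a coding length. Of these, 42556 have more than 100 and at most 2000 codons, 14306 have counts that differ from those of every transcript listed before them, and 5558 have at least 20 disome footprints over both libraries. These 5558 form the comparison set, which includes the enriched transcripts. The choice required that the disome share of a transcript, its count over the library total, be at least 4 times its monosome share within each replicate number. The label of strong enrichment in stacked ribosomes is therefore true by construction, and the folds of the enriched transcripts describe the values that made the choice.

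A ribosome that slows or stops on an mRNA can be caught up by the ribosome behind it. The stacked pair, called a disome, protects a longer stretch of mRNA from nuclease than a single ribosome, or monosome. Both kinds of fragment can be sized on a gel and sequenced. An mRNA on which ribosomes are stuck can be broken down by no-go decay, and the stuck ribosomes themselves are taken apart in a separate pathway of quality control. Both depend on ubiquitin that the ligase Znf598 adds to ribosomal proteins. Disomes also form where ribosomes queue for a short time, as they can before a stop codon.

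The study used disome footprints to ask on which mRNAs ribosomes collide in the early embryo. The disome group and the monosome group each hold 2 libraries from whole embryos of the wild-type AB strain at 4 hpf. Embryos of both groups had been injected at the 1-cell stage with sfGFP reporter mRNAs, lysed with cycloheximide and digested with RNase I, so that the groups differ in the footprint kind and not in the embryos' treatment. None of the sources used here says whether the libraries of 1 group come from separate batches of embryos, so the spread between them may be technical.

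The disome libraries hold 473057 and 364830 counts, against 2749837 and 3814224 counts in the monosome libraries. A level of 3 counts corresponds to 6.34 and 8.22 counts per 1000000 of the library (CPM) in the disome libraries, and to 1.09 and 0.787 CPM in the monosome libraries. The identifiers are Ensembl transcripts, and the tables used here pair none of them with a gene. Only znf1102 can be named among the enriched transcripts, because the study labels its transcript. The others are given by their coding length, and the defining markers of the whole embryo were not analysed here.

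znf1102 encodes a protein of tandem C2H2 zinc fingers with a FiNZ domain and belongs to the FZNF genes, a fish-specific family of many similar copies that is expressed from the embryo's own genome at about this stage. The study's primers for znf1102 and for znf1093, another C2H2 zinc finger gene, are shown because they bear on how such a transcript can be counted. Letters in capitals mark a primer that is the same in both genes.
znf1102 forward: gaagcgactgatcttcacactg
znf1102 reverse: CAATTTTGACATGATGTTCCTCCTC
znf1093 forward: gaaacattcacagtcaaacaggaag
znf1093 reverse: CAATTTTGACATGATGTTCCTCCTC
The reverse primer has 25 bases in both genes, without a difference. The forward primers have 22 and 25 bases and differ between the genes. The authors kept only reads that fit a single locus, so footprints that fit several genes equally well are missing from the counts in all 4 libraries. Disome fragments are longer than monosome fragments, so the loss can differ between the footprint kinds and alter the fold. How many were lost from znf1102, or from any other transcript, was not tested.

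The znf1102 transcript (ENSDART00000158217.2, 325 codons) had 36 and 21 footprints in the disome libraries, against 43 and 36 in the monosome libraries. In CPM these were 76.1 and 57.6 in the disome libraries, against 15.6 and 9.44 in the monosome libraries. Both disome values lay above both monosome values. The fold was 4.87 in replicate 1 (95% interval 3.04 to 7.76) and 6.10 in replicate 2 (3.38 to 10.7), and 5.33 for the summed shares, or 2.41 on the log2 scale. Intervals of this kind are exact and conditional on the sum of a disome and a monosome count, and they cover counting error only. The fold of znf1102 was in the lower part of the set, with 35 enriched transcripts below it. Its neighbours in the table, which are listed in the order of the deposited file, held 0 or 1 counts in each library.

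The study names 2 other zinc finger transcripts in these data, and neither is in the set. The transcript of znf236 (ENSDART00000167736.2, 1783 codons), which encodes tandem C2H2 zinc fingers, held 15 and 12 footprints in the disome libraries, against 60 and 81 in the monosome libraries. Its fold was 1.45 in replicate 1 (0.766 to 2.59) and 1.55 in replicate 2 (0.769 to 2.86), and both intervals include 1. The transcript of si:ch73-266f23.1 (ENSDART00000115002.5, 340 codons), an FZNF gene, held 3 and 2 footprints in the disome libraries, against 34 and 37 in the monosome libraries. On these few counts the fold of si:ch73-266f23.1 was 0.513 in replicate 1 (0.101 to 1.63) and 0.565 in replicate 2 (0.0660 to 2.19). Among these 3 C2H2 zinc finger transcripts, a fold of at least 4 was thus measured on 1. The disome count of si:ch73-266f23.1 was below the minimum of the rule, so that transcript could not be chosen at any fold. The study also measured the mRNA of these genes in embryos that lack Znf598, among other experiments. For ribosome collision on them it used the positions of disome footprints within the reading frame, with earlier disome libraries merged in, and reporter assays. A fold over the whole reading frame does not test such positions, so nothing is read from the count of 1 among 3.

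Across the 129 enriched transcripts, the disome libraries had a median of 74.0 and 76.7 CPM, against 12.7 and 12.8 CPM in the monosome libraries. In the comparison set the medians were 61.3 and 60.3 CPM in the disome libraries, against 68.0 and 67.4 CPM in the monosome libraries. The upper quartile in disome replicate 1 was 268 CPM over the enriched transcripts and 127 CPM over the comparison set. Per 100 codons, the median enriched transcript held 22.9 disome footprints over both libraries, against 26.6 monosome footprints. The median transcript of the comparison set held 11.9 disome footprints per 100 codons, against 96.7 monosome footprints. These levels are the values that made the choice, so the lower monosome levels of the enriched transcripts follow from it. A low monosome level can come from less mRNA or from fewer ribosomes on each mRNA. It can also come from footprints dropped because they fit several loci, and these counts cannot tell such sources apart.

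The counts on the enriched transcripts summed to 15126 and 11681, or 3.20% and 3.20% of all counts, in the disome libraries. They summed to 13509 and 19826, or 0.491% and 0.520% of all counts, in the monosome libraries. Footprints counted on several transcripts, as equal counts of neighbours make likely, enter these sums and the library totals more than once. The shares of the same footprint kind thus differed little between replicates. All 129 transcripts had both disome levels above both monosome levels, and so had 2099 of the 5558 transcripts of the comparison set (37.8%). The choice compared levels within a replicate number and so favours such a separation, and nothing is read from it. The share of the comparison set that met the 4-fold rule was 2.32%. In the test of all 16910 transcripts with at least 20 footprints in total (edgeR's quasi-likelihood test, false discovery rate 0.01), 1991 transcripts (11.8%) were called higher in the disome libraries, all 129 enriched transcripts among them. The test kept transcripts with identical counts and set no limits to the coding length. Its 11.8% is therefore not over the same transcripts as the 2.32%. In all, 3636 transcripts were called in either direction, whereas scaling by library totals called 4082, of which 1558 were higher. The choice used the same contrast, so nothing is read from the count of members.

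**Figure D1:**
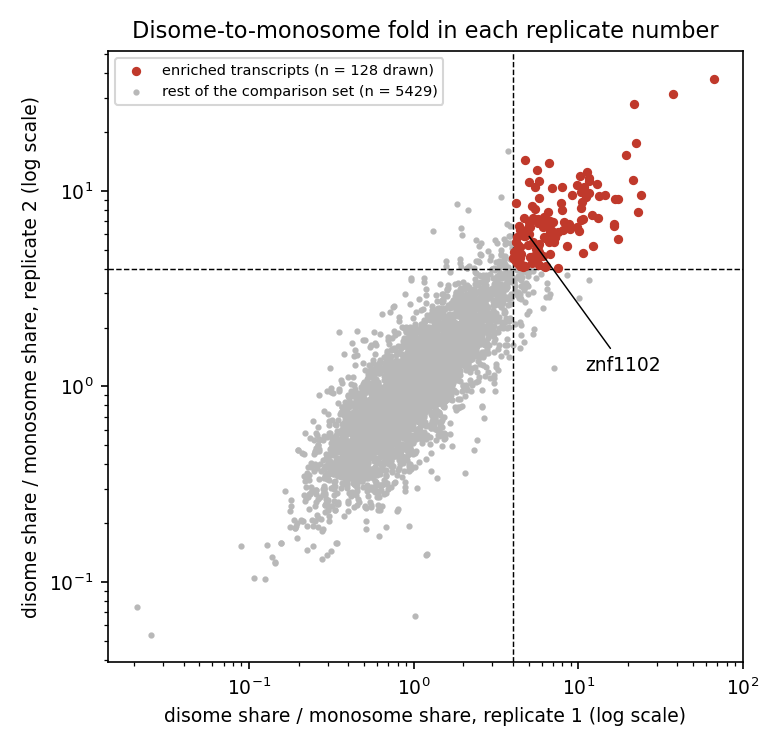
Disome share over monosome share in replicate 1 (x axis) and replicate 2 (y axis), both on log scales, for 128 enriched transcripts (red; the 1 with a monosome count of 0 cannot be drawn) and the 5429 other transcripts of the comparison set (gray). Dashed lines mark the 4-fold threshold, and the enriched transcripts fill the upper right corner at the end of a continuous cloud, with znf1102 close to the corner.

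The plot of folds in each replicate number shows no gap between the enriched transcripts and the rest. The summed shares gave a median fold of 6.48 over the enriched transcripts, with a range of 4.27 to 169, and of 0.986 over the comparison set. The fold was above 10 on 25 enriched transcripts, between 5 and 10 on 81 and below 5 on 23. Of the comparison set, 188 transcripts passed 4-fold in replicate 1 and 184 in replicate 2, of which 59 passed only in replicate 1 and 55 only in replicate 2.

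Just inside the threshold, the lower of a transcript's 2 replicate folds was 4.01, 4.02, 4.07, 4.07 and 4.11, on transcripts of 1045, 117, 267, 259 and 229 codons. Just outside it was 3.88, 3.89, 3.92, 3.96 and 3.98, on transcripts of 167, 158, 142, 170 and 1061 codons. Transcripts on either side of the threshold thus differed by less than their counting error, which for the first of those inside gave a replicate 1 interval of 3.29 to 4.89. The lower 95% limit of the fold was at or above 4 in both replicates on 44 enriched transcripts, in 1 replicate on 37 and in neither on 48. It was below 1 on 0 of them, which the rule makes likely, since it required at least 4-fold in each replicate.

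The median folds of the replicate numbers were close. The rule required at least 4-fold in both, so part of this likeness follows from the choice. The median was 6.39 in replicate 1 and 6.53 in replicate 2, and the fold was higher in replicate 1 on 69 transcripts and in replicate 2 on 60. The log2 fold differed between replicates by a median of 0.31 over the enriched transcripts with a defined value in both, and by 0.31 over the comparison set. At 200 or more disome footprints the median difference was 0.28 over the enriched transcripts and 0.16 over the comparison set. For 116 of the 129 the replicates lay within 2-fold of each other.

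Coverage varied widely among the enriched transcripts. Of the 129, 35 had at least 200 disome footprints, 40 had 50 to under 200 and 54 had 20 to under 50. The median fold was 6.38 in the first of these classes (4.27 to 19.8), 6.45 in the second (4.34 to 14.4) and 7.61 in the third (4.28 to 169). The widest range thus lay where footprints were fewest. The enriched transcripts made up 4.97% of the 704 transcripts of the comparison set with at least 200 disome footprints, 1.88% of the 2133 with 50 to under 200 and 1.98% of the 2721 with fewer.

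The most disome footprints of the set lay on ENSDART00000011663.9, which has 240 codons. It held 1929 and 1444 footprints in the disome libraries, against 1591 and 2173 in the monosome libraries. In CPM these were 4078 and 3958 in the disome libraries, against 579 and 570 in the monosome libraries. The libraries of 1 kind lay within a few percent of each other, and the groups were far apart. The fold was 7.05 in replicate 1 (6.59 to 7.54) and 6.95 in replicate 2 (6.50 to 7.43), so that it is among the most precisely measured of the set.

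Many of the other well-covered transcripts were short. A transcript of 114 codons held 540 and 513 footprints in the disome libraries, against 554 and 745 in the monosome libraries, a fold of 6.42. One of 104 codons held 570 and 478 footprints in the disome libraries, against 578 and 730 in the monosome libraries, a fold of 6.26. Both disome levels of these transcripts were above 1000 CPM, and their monosome levels were near 200 CPM. A transcript of 215 codons held 528 and 389 footprints in the disome libraries, against 391 and 468 in the monosome libraries, a fold of 8.24. One of 119 codons held 470 and 340 footprints in the disome libraries, against 489 and 792 in the monosome libraries, a fold of 4.995. The disome libraries are several times smaller than the monosome libraries, so that similar raw counts in both kinds are a large difference in share. A pair of transcripts of 279 codons had 398 disome footprints each in replicate 1 and 375 or 374 in replicate 2, against 547 and 880 monosome footprints, with folds of 4.35 and 4.34. A transcript of 347 codons held 364 and 300 footprints in the disome libraries, against 426 and 591 in the monosome libraries, a fold of 5.14.

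**Figure D2:**
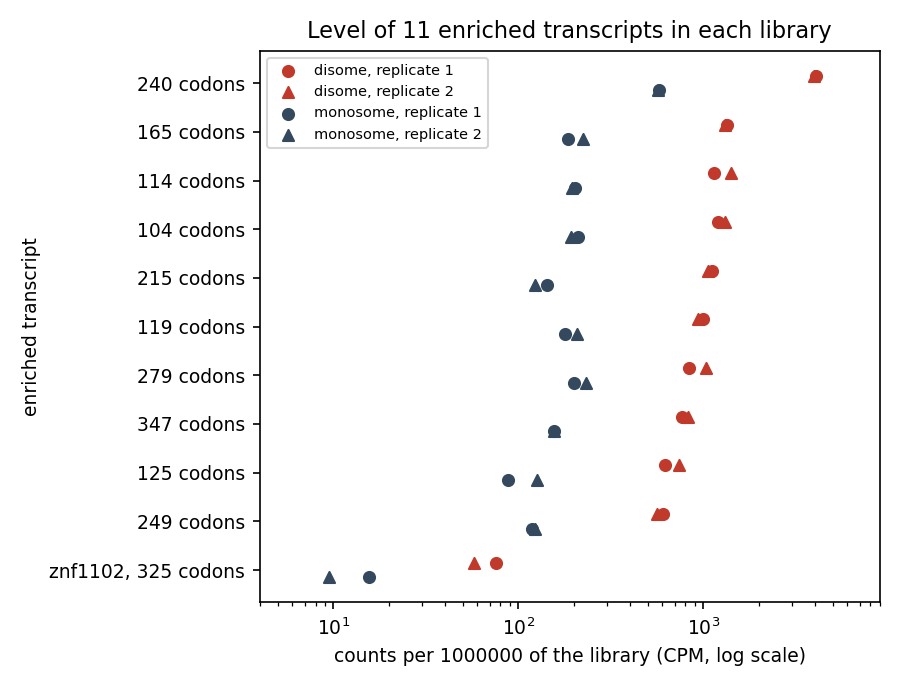
Level of 11 enriched transcripts in each library, in CPM on a log axis, with disome libraries (red) and monosome libraries (dark blue) drawn as points per replicate. Drawn are the 10 with most disome footprints, taking 1 of each group of neighbouring transcripts, and znf1102. In every transcript drawn, both disome points lie to the right of both monosome points, and the highest disome levels are 4078 and 3958 CPM.

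The largest folds rested mostly on few monosome footprints. The largest was on a transcript of 104 codons with 11 and 14 footprints in the disome libraries, against 1 and 0 in the monosome libraries. Its fold was 63.9 in replicate 1, with a counting interval of 9.29 to 2752. In replicate 2 the fold was 48.8 when a floor of 3 counts stood in for the monosome count of 0. The lower 95% limit of the replicate 2 fold, from the counts themselves, was 34.7. Summed shares gave 169 for it, a value that a single monosome footprint sets. A transcript of 211 codons held 23 and 18 footprints in the disome libraries, against 2 and 5 in the monosome libraries, with folds of 66.8 (16.5 to 585) and 37.6 (13.5 to 130). One of 245 codons held 13 and 9 footprints in the disome libraries, against 2 and 3 in the monosome libraries, and one of 449 codons had 15 and 8, against 4 and 3. On the 245-codon transcript the folds were 37.8 (8.55 to 345) and 31.4 (7.83 to 180). On the 449-codon transcript they were 21.8 (6.94 to 90.2) and 27.9 (6.69 to 163). Only 7 enriched transcripts had 10 or fewer footprints in both monosome libraries.

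High folds were also measured at good depth. ENSDART00000152546.2, of 137 codons, held 252 and 183 footprints in the disome libraries, against 65 and 109 in the monosome libraries. Its levels were 533 and 502 CPM in the disome libraries, against 23.6 and 28.6 CPM in the monosome libraries. The fold was 22.5 in replicate 1 (17.1 to 30.1) and 17.6 in replicate 2 (13.8 to 22.5), or 4.31 on the log2 scale for the summed shares. These intervals cover counting error only, and how many footprints were dropped because they fit several loci was not tested. Among the 35 transcripts with at least 200 disome footprints, the fold of ENSDART00000152546.2 was the highest. A transcript of 193 codons followed, with 127 and 76 footprints in the disome libraries, against 38 and 52 in the monosome libraries. Its folds were 19.4 (13.4 to 28.7) and 15.3 (10.6 to 22.2).

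The smallest fold of the summed shares was on a transcript of 1045 codons with 174 and 149 footprints in the disome libraries, against 252 and 344 in the monosome libraries. Its fold was 4.27, well measured but close to the threshold. The next, of 611 codons, held 19 and 14 footprints in the disome libraries, against 26 and 34 in the monosome libraries, a fold of 4.28. The longest enriched transcript, of 1672 codons, held 17 and 17 footprints in the disome libraries, against 16 and 24 in the monosome libraries, a fold of 6.81. Transcripts of 1620 and 1602 codons, which lie next to each other in the table, had folds of 10.5 and 10.7. Large coding length thus did not keep a transcript out of the set.

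To ask how far a 4-fold enrichment in 1 replicate number repeats in the other, the rule was applied to 1 replicate number and the fold was read in the other. The enriched transcripts were chosen by both replicate numbers, so no library is left to test them. The sets below were chosen anew and describe how well the measurement repeats. By replicate 1 alone (at least 10 disome footprints and 4-fold), 215 of 6020 transcripts were chosen, with a median fold of 5.69 there. In replicate 2 their median was 5.03, with quartiles at 3.29 and 6.90, against a median of 0.952 over all 6020. The fold in replicate 2 was above 1 on 213 of the 215 (99.1%), against 46.8% of all, and at least 4 on 136 (63.3%), against 3.04% of all.

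By replicate 2 alone, 194 of 5254 transcripts were chosen, with a median fold of 5.83 there. In replicate 1 their median was 4.73, with quartiles at 3.43 and 7.03, against a median of 0.969 over all 5254. The fold in replicate 1 was above 1 on 191 of the 194 (98.5%) and at least 4 on 122 (62.9%), against 47.8% and 3.20% of all. In both directions the fold was lower in the libraries that had not made the choice, and remained several times that of the transcripts at large. Of the 215, 127 are enriched transcripts, as are 120 of the 194, so the shares at 4-fold in part restate the choice of that set. Libraries of the same kind may be technical repeats, and the loss of footprints that fit several loci affects both replicate numbers. How much either adds to the repeated fold was not tested. Transcripts that share footprints are counted separately here, and no test was made over them.

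**Figure D3:**
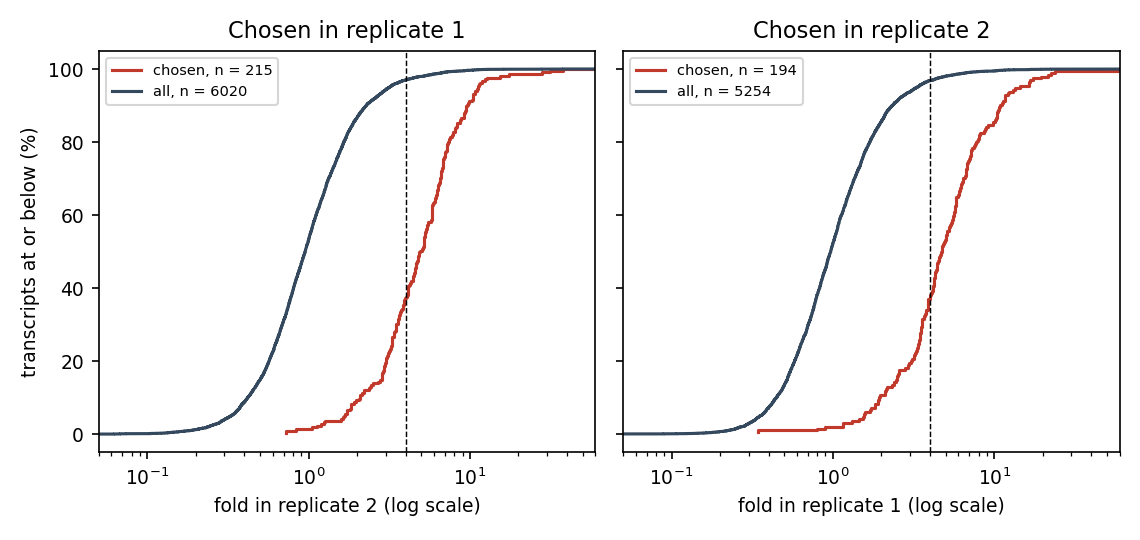
Cumulative share of transcripts (percent) at or below a disome-to-monosome fold (x axis, log scale) in the replicate number that the choice did not use, for transcripts chosen by 1 replicate number alone (red) and for all transcripts with at least 10 disome footprints in the choosing library (dark blue), with the 4-fold threshold dashed. The chosen transcripts center at 5.03 in replicate 2 and 4.73 in replicate 1, against 0.952 and 0.969 over all transcripts. Many of them are enriched transcripts, which were chosen by both replicate numbers, and the libraries of the same kind may be technical repeats.

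The rule set limits to the coding length and did not otherwise use it directly. It also required a minimum of disome footprints, a count that can grow with length, and set no minimum of monosome footprints. A short transcript therefore reaches that minimum more readily at a high fold, so part of the differences in length can follow from the rule. How large that part is was not tested. Enriched transcripts had a median of 267 codons, with quartiles at 178 and 450, against a median of 462 codons and quartiles at 269 and 765 in the comparison set. The share of enriched transcripts was 6.01% among the 366 transcripts of at most 150 codons, 4.43% among the 881 of more than 150 and up to 250, and 2.33% among the 1757 of more than 250 and up to 500. It was 1.00% among the 1793 of more than 500 and up to 1000 codons and 1.18% among the 761 of more than 1000. The share was thus highest among short reading frames, and 61 of the 129 had at most 250 codons. The median fold of the comparison set was also lower among long reading frames, at 1.17, 1.21, 1.08, 0.941 and 0.779 from the shortest to the longest of these classes.

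**Figure D4:**
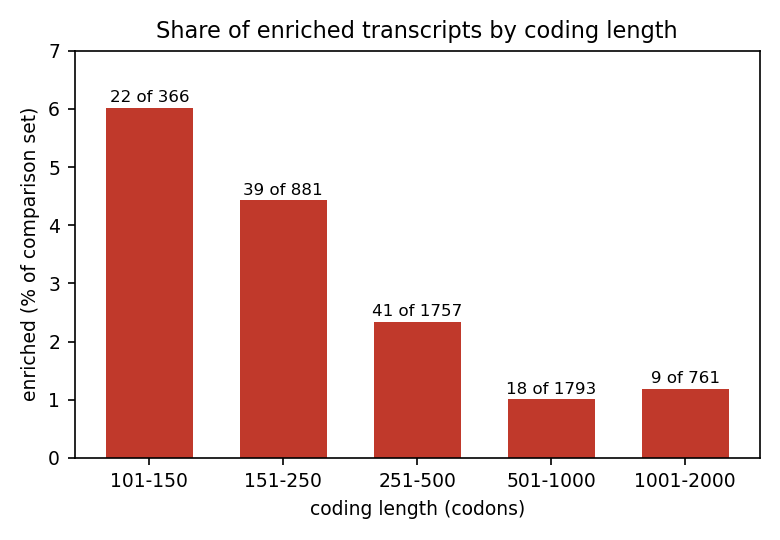
Share of the comparison set that was enriched (percent, from 0) by coding length in codons, with the number of enriched transcripts and of the comparison set above each bar. The share is 6.01% in the shortest class and 1.00% and 1.18% in the longest classes.

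Depth was again counted in disome footprints, so classes of depth do not separate length from the minimum of the rule. The lower coding length of the enriched transcripts was seen at each depth. Their median was 240 codons, against 338 in the comparison set, at 200 or more disome footprints. It was 322.5 codons, against 484, at 50 to under 200 footprints, and 366.5, against 480, at 20 to under 50 footprints. Taking the longest transcript of each group of neighbours in the table gave a median of 309 codons, which is 153 below the comparison set, in which neighbours were not joined. The deposited totals give no positions, so where on the reading frame the footprints lie was not analysed here.

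Many enriched transcripts stand next to each other in the table, where transcripts with equal or similar counts often follow one another. When transcripts within 5 entries of each other were joined, the 129 formed 94 groups, of which 71 held 1 transcript and 23 held more, 58 transcripts in all. There were 16 groups of 2, 4 of 3, 2 of 4 and 1 of 6. The comparison set was not joined in this way, so whether such grouping is particular to the enriched transcripts was not tested. A further 15 transcripts with exactly the counts of an enriched transcript had been dropped by the rule. Transcripts in a group can share footprints, so the number of separate enriched genes may be lower than 129 and is not given by these tables.

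In some of these groups, a shorter transcript held a larger part of the disome than of the monosome footprints of a longer one. This restates that its fold was the higher, and the folds made the choice. The pairs shown were picked by hand. In one group of 4, 3 transcripts of 165 codons each had 637 and 477 disome footprints, against 509 to 514 and 856 to 857 monosome footprints. The fourth, of 125 codons, held 425 and 325 footprints in the disome libraries, against 236 and 413 in the monosome libraries. It thus held 66.7% and 68.1% of the disome footprints of a 165-codon transcript, against 45.9% and 48.2% of the monosome footprints, on 75.8% of its codons. Its fold was 9.22, and that of the longer ones was 6.45 to 6.48.

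A group with transcripts of 1178 and 245 codons showed the same on few footprints. The 1178-codon transcript held 15 and 10 footprints in the disome libraries, against 14 and 18 in the monosome libraries. The 245-codon transcript held 86.7% and 90.0% of its disome count, against 14.3% and 16.7% of its monosome count, at 20.8% of its length. Likewise, a transcript of 159 codons held 84.6% and 90.9% of the disome count of its neighbour of 487 codons, against 53.3% and 52.6% of the monosome count, at 32.6% of the length. The pattern did not hold in every group, since a transcript of 105 codons held 30.3% and 50% of the disome count of its neighbour of 421 codons, against 62.5% and 40.9% of the monosome count. A transcript of 540 codons also went the other way. It held 100% and 100% of the disome count of its neighbour of 1169 codons, against 118% and 131% of the monosome count. Whether the shorter reading frame lies within the longer was not tested, since the tables give counts and lengths only.

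The members of the largest group differed in fold. Its 6 transcripts had 176 to 259 codons and folds of 5.32 to 11.4. The 259-codon transcript held 237 and 149 footprints in the disome libraries, against 239 and 321 in the monosome libraries. The 176-codon transcript held 80 and 56 footprints in the disome libraries, against 40 and 52 in the monosome libraries. The shorter transcript thus held 33.8% and 37.6% of the disome count of the longer one and 16.7% and 16.2% of its monosome count. By contrast, a transcript of 246 codons in the group held 58.7% and 59.1% of the disome count and 59.4% and 54.5% of the monosome count, with a fold of 5.49. Transcripts listed just after the group, of 186, 275 and 537 codons, had folds of 1.79 to 3.14 and are not in the set.

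Another group of 4 had 326 to 366 codons and folds of 9.63 to 11.9. Its transcripts had 214 to 221 and 154 to 159 disome footprints, against 95 to 121 and 149 to 190 monosome footprints. The disome counts of its members were within 7 footprints of each other in a library, whereas the monosome counts spread further. Around the 347-codon transcript described above, neighbouring entries of 170 and 171 codons ran from 2.49 to 8.38 in fold, and not all of them are enriched. The highest, which is enriched, held 228 and 187 footprints in the disome libraries, against 190 and 189 in the monosome libraries. The lowest, of 171 codons and not in the set, had 234 and 178, against 520 and 781. In this pair, picked by hand, similar disome counts stood beside monosome counts that differed severalfold. Over all these entries the disome counts ran from 119 to 276 in replicate 1.

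The enriched transcripts were not spread evenly along the table. Entries 9001 to 15000 held 24 of them among 372 transcripts of the comparison set (6.45%), against 2.32% over the whole table. These 24 belong to 15 groups of neighbours, of which the largest is the group of 6. Entries 39001 to 42000 held 0 among 274. Both FZNF transcripts named by the study, znf1102 and si:ch73-266f23.1, are within entries 9001 to 15000, but the table gives no chromosome, and which genes the other enriched transcripts there belong to was not analysed here. This range was chosen after its values were seen.

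Near the end of the table, 26 consecutive entries have a few coding lengths that return again and again. Of these entries, 24 had at least 20 disome footprints and 3 were enriched. This stretch was also chosen after its values were seen, and it is shown because it holds both the highest fold of the set and the highest among well-covered transcripts. The transcripts of 137 codons differed widely in fold. ENSDART00000152546.2, described above, held 252 and 183 footprints in the disome libraries, against 65 and 109 in the monosome libraries. A neighbour of equal length held 252 and 205 footprints in the disome libraries, against 721 and 1138 in the monosome libraries, a fold of 1.95. A further one held 3 and 3 footprints in the disome libraries, against 915 and 1458 in the monosome libraries. With so few disome footprints it is not among the 24. The first of these differs from its neighbour in the monosome count and hardly in the disome count, and the last is low in the disome count only.

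The other lengths in the stretch behaved differently from one another. At 104 codons, 7 transcripts had folds of 0.856 to 169 with a median of 2.39, and 2 of them were enriched. One is the transcript with 1 monosome footprint, and the other held 58 and 65 footprints in the disome libraries, against 33 and 57 in the monosome libraries, a fold of 11.2. At 129 codons, 6 transcripts had folds of 0.217 to 1.60 and 0 were enriched. At 125 codons, 3 transcripts had folds of 0.982 to 2.30 and 0 were enriched. Over the whole comparison set, 33 transcripts of 129 codons included 0 enriched ones, with a highest fold of 2.31. The 35 of 104 codons included 4 enriched ones, the 36 of 125 codons included 2 and the 39 of 137 codons included 2. What gene or genes these entries belong to was not analysed here. How many footprints were dropped from them because they fit several loci was not tested either, and such a loss can alter these folds.

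**Figure D5:**
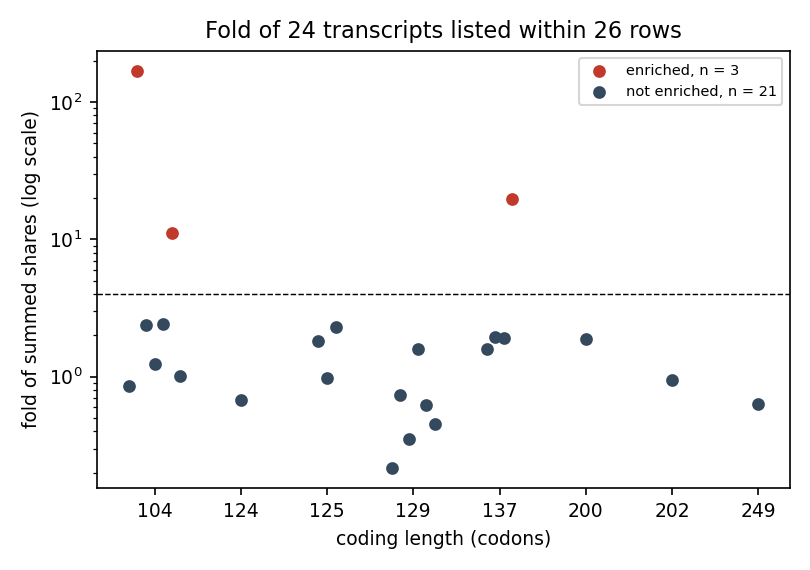
Disome-to-monosome fold of the summed shares (log scale) for the 24 transcripts with at least 20 disome footprints in the stretch of recurring coding lengths, by coding length in codons, with enriched transcripts in red, the others in dark blue and the 4-fold threshold dashed. Folds reach 169 at 104 codons, where the point rests on 1 monosome footprint, and 19.8 at 137 codons, while all transcripts of 129 codons lie at or below 1.60.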

How the data were processed

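Disome and monosome footprints were analysed in 2 libraries each. The authors preprocessed reads (fastp), placed them on GRCz11 (STAR, version 2.7.0a in the submitters' processing notes, which also name CASAVA 1.8) with up to 1 mismatch and 1 locus, and deposited raw footprint counts per coding sequence with its length in codons. How footprints shared by transcripts were counted is not given in the sources used here. Earlier disome libraries were not used here.

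Shares and folds used the library totals. The members, lists and named transcripts were chosen with earlier results of these data known. Described were transcripts that the study labels, the 10 with most disome footprints and those nearest the threshold. Some of the 10 largest and 5 smallest folds were also described, with at most 2 further identifiers. Intervals are 95% Clopper-Pearson and cover counting error only. Counts of all transcripts with at least 20 footprints were compared with edgeR 4.0.16 (R 4.3.3, TMM, quasi-likelihood test, Benjamini-Hochberg FDR 0.01), with DESeq2 1.42.0 as an alternative. Other computations used Python 3.11.15, pandas 2.3.3 and scipy 1.17.1. Gene lists, embryo markers and protein features need gene names and were not analysed here.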

Additional observations from a re-analysis of the deposited data

How the results depend on the processing

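The 129 enriched transcripts became 255 at 3-fold and 84 with at least 40 disome footprints, and 194 or 215 when the rule was applied without replicate 1 or without replicate 2. With TMM library sizes there were 182, which included all 129, with the disome and monosome libraries summed 169, and with the replicate numbers crossed 131, of which 116 were among the 129. Taking 1 transcript of each group of neighbours (94) and leaving out the stretch of recurring lengths (126) were chosen after seeing the data. The median coding length stayed 153 to 208 codons below the comparison set under the 3 alternatives tried, 2 of them chosen after seeing the data, against 195 as reported. In the test of all transcripts, edgeR called 3636, of which 1991 were higher in disomes, and 4082 with library totals, of which 1558 were higher. The median log2 ratio of all transcripts was -0.13 with TMM and -0.35 with library totals, a shift of 0.22. DESeq2 called 2148 (1463 higher), and leaving out 1 library gave 2142 to 2823, lowest without disome replicate 1. The cause of these differences was not tested. With the replicate number as a block, edgeR called 3445. Same-numbered disome and monosome libraries did not deviate together (r = -0.0242 over 9709 transcripts). Counting error also lowers such a correlation, so it does not settle whether they are pairs. The study describes its added disome libraries as corresponding to monosome libraries published earlier, without saying which replicate numbers match. The rule and the replicate folds pair disome and monosome libraries by number, whereas the main edgeR test used no block. The protein features and their alternative of 1 transcript a gene were not run, because no table used here pairs the identifiers with genes. The depth of the disome libraries limits the set: 54 of the 129 rest on fewer than 50 disome footprints.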
